A study of Mus musculus with 50 samples.

Results

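The ligands, receptors and secreted antagonists of the Wnt pathway were taken from a normalized count table of mouse embryonic stem cells (ESCs) by gene symbol: every *Wnt* gene, every *Fzd* (Frizzled) gene, and *Sfrp*, *Frzb*, *Dkk* and *Wif1*. The rule used no measured value. It found 38 of the 18055 genes of the table, namely 19 Wnt ligands, 10 Frizzled receptors and 9 antagonists (5 of the *Sfrp* and *Frzb* group, 3 *Dkk* genes and *Wif1*), and all 38 could be placed on the mm9 annotation. Their promoters were compared in peak lists of SUZ12, H3K27me3 and H3K27ac, and 23 of the 38 had enough reads to be tested for expression.

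The cells were E14 ESCs grown without feeders on gelatin, with LIF and inhibitors of MEK and GSK3β. The wild-type line (WT) was compared with 4 edited lines. The *Ezh2* KO line carries a large deletion in *Ezh2*, made with a pair of guide RNAs, and keeps *Ezh1*. The *Ezh1/2* dKO line lacks both genes. The *Ezh2* Y726D and *Ezh2* R685C lines carry a point mutation of *Ezh2* in cells without *Ezh1*. For HA ChIP-seq, *Ezh1/2* dKO cells transiently expressing HA-tagged human EZH1 were compared with untransfected *Ezh1/2* dKO cells. Each line came from CRISPR/Cas9 editing and subcloning, so a line and its clone cannot be told apart. The SUZ12 and H3K27me3 samples labelled for the Y726D mutation alone were taken as the *Ezh2* Y726D line of the study. RNA-seq covered every line except *Ezh2* R685C, with 2 libraries each. The study calls its replicates biological in general terms, while the labels of these libraries give a number and no culture, so p-values measure the spread between the 2 libraries of a line. ChIP-seq lists came from 1 library per line and target, so peak differences between lines were not tested.

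Wnt proteins are secreted, lipid-modified ligands that bind Frizzled receptors together with LRP co-receptors. In the canonical branch this blocks GSK3β and stabilizes β-catenin, which activates target genes with TCF/LEF factors. Other branches act on cell polarity and movement without β-catenin. SFRP proteins and WIF1 bind Wnt ligands outside the cell, and most DKK proteins block LRP co-receptors. A GSK3β inhibitor, as present in this medium, activates the β-catenin branch below the receptors and helps ESCs to self-renew. Polycomb repressive complex 2 (PRC2), with SUZ12 as a core subunit and EZH1 or EZH2 as the enzyme, methylates lysine 27 of histone H3 at the CpG-rich promoters of many developmental genes. Acetylation of the same lysine (H3K27ac) marks active promoters.

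Promoter sequences of 5 members are printed as examples for the peaks described next. All 5 held more CG dinucleotides than the median promoter of genes in the table, 17, while promoters of other members held as few as 4. *Wnt3a* had SUZ12 peaks in every line except *Ezh1/2* dKO, *Wnt6* kept them in *Ezh2* KO but not in *Ezh2* Y726D, *Fzd9* had both SUZ12 and H3K27ac nearby in *Ezh2* Y726D, and *Wif1* and *Fzd5* had no SUZ12 peak in any line. The sequences come from RefSeq (build GRCm38.p6), cover 250 bases before and 50 bases after the start site, run 5′ to 3′ along the gene, and were placed on mm9 by an exact match. Capitals mark each CG dinucleotide, which reads the same on both strands. The counts of CG were 45, 31, 53, 25 and 38 in the order printed.
Wnt3a promoter, chr11:59104204-59104503, minus strand: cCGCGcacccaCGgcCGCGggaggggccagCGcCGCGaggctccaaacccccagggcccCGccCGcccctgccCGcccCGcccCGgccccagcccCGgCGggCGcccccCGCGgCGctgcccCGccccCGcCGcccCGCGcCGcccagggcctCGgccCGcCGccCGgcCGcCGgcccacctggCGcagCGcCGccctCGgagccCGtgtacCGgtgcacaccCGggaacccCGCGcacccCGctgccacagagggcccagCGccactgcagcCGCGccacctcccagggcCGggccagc
Wnt6 promoter, chr1:74818216-74818515, plus strand: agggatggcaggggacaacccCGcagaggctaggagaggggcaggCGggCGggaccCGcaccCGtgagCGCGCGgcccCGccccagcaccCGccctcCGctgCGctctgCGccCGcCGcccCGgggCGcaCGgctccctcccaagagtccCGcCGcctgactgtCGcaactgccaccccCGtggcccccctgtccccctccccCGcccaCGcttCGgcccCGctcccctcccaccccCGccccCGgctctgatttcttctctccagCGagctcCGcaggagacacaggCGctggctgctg
Fzd9 promoter, chr5:135726868-135727167, minus strand: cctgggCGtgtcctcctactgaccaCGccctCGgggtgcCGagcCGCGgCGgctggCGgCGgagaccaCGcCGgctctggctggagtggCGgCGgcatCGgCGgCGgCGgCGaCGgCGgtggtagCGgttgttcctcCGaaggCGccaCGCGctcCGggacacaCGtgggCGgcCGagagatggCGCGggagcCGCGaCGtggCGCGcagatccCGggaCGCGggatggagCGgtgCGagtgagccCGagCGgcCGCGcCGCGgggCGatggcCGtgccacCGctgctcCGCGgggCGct
Wif1 promoter, chr10:120470810-120471109, plus strand: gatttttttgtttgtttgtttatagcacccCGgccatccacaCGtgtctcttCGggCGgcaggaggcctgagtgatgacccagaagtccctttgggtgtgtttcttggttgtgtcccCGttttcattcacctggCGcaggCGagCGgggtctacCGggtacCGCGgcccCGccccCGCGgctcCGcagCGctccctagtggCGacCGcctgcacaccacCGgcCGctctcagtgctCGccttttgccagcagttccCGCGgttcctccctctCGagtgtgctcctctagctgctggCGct
Fzd5 promoter, chr1:64784275-64784574, minus strand: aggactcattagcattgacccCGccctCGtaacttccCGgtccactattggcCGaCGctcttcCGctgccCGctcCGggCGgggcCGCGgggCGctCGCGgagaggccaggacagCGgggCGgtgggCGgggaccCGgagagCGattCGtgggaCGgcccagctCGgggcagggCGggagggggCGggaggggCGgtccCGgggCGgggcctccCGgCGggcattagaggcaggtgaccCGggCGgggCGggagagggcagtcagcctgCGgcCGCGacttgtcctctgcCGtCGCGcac

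Most promoters of these genes were rich in CG, with or without SUZ12. Of the 16351 RefSeq promoters of genes in the table, 3.1% held at least as many CG as *Wnt3a*, 17.5% as *Wnt6*, 0.7% as *Fzd9*, 30.6% as *Wif1* and 8.1% as *Fzd5*. The table held 30 promoters for 27 members. The 25 promoters of members with a SUZ12 peak in WT had a median of 26 CG (4 to 58), and 18 of them were at or above the median of all promoters, 17. The 5 promoters of members without a SUZ12 peak in WT had a median of 25 CG (6 to 45), and 4 of the 5 were at or above 17. A WT SUZ12 peak overlapped 20 of the 25 windows. At *Fzd9* the strongest WT SUZ12 peak (chr5:135725578-135726857) lay inside the gene, just downstream of the printed window.

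In WT ESCs, SUZ12 and H3K27me3 marked nearly the whole ligand family and most receptors. A peak was counted when it had a p of at most 1e-10 and shared at least 1 bp with the 5 kb on either side of an annotated start site. SUZ12 peaks met this at 31 of the 38 members (81.6%, Wilson 95% CI 66.6 to 90.8%), against 17.1% of the 17424 genes placed on the annotation. They comprised 18 of 19 Wnt ligands, 7 of 10 Frizzled receptors and 6 of 9 antagonists. H3K27me3 peaks met it at 32 members (84.2%, 69.6 to 92.6%), against 22% of genes. Both were present at 30 members. These intervals cover counting error only, treating the members as independent draws although they are every gene that met the rule. They are no test against the share of genes, and the reads behind each list are unknown.

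Of the 5 members with neither mark in WT, 3 were receptors. *Fzd5*, *Fzd7*, *Fzd10* and *Sfrp4*, as well as the ligand *Wnt8b*, made up this group. *Dkk3* and *Wif1* had H3K27me3 without SUZ12, from single peaks of 251 and 289 bp 1.46 and 2.22 kb downstream of the start site. *Sfrp2* had SUZ12 without H3K27me3. The longest SUZ12 coverage in WT was at *Wnt5a* (7740 bp), *Wnt7b* (6607 bp) and *Wnt11* (5380 bp). The median of the members with a peak was 1.92 kb. At *Wnt5a*, a ligand known for signalling without β-catenin, the strongest WT SUZ12 peak covered the start site (chr14:29317320-29321168) with a -log10 p of 115.65.

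**Figure D1:**
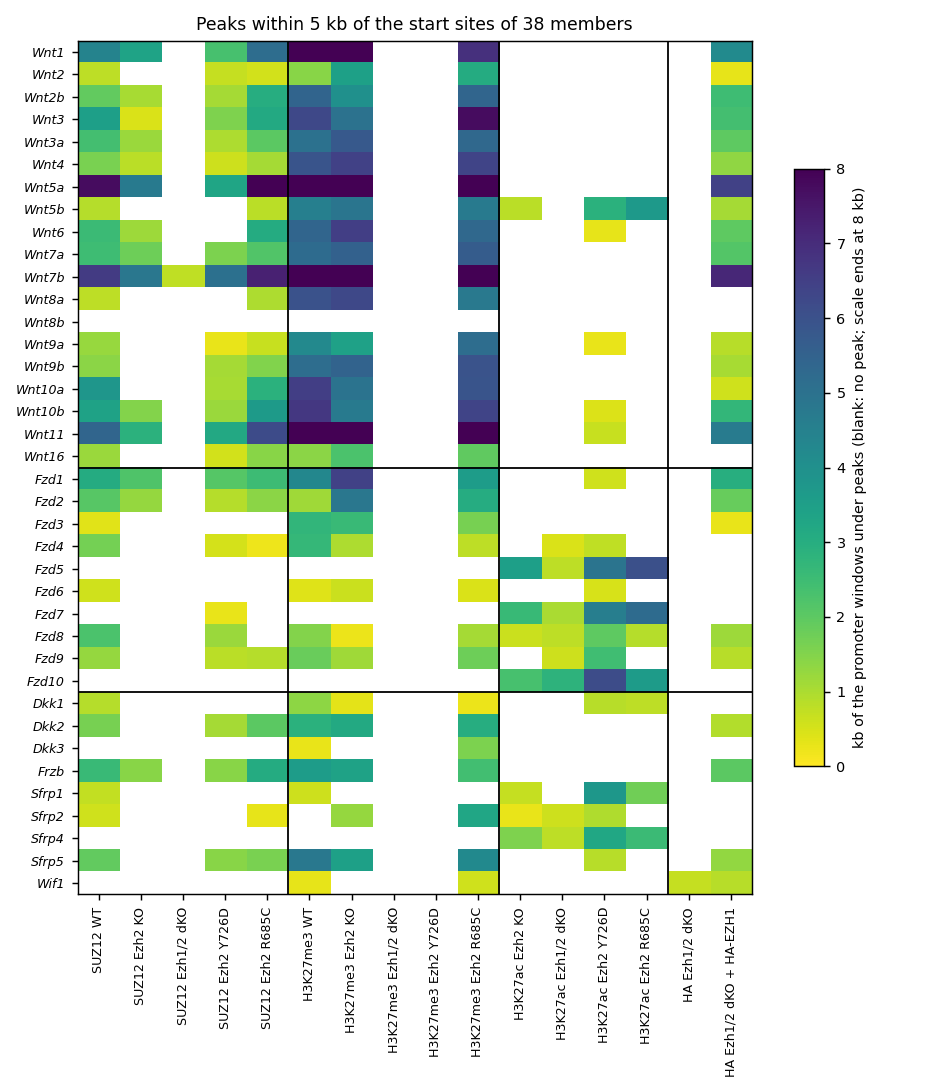
Kilobases within 5 kb of the start sites that lay under peaks, for each of the 38 members (rows, grouped as ligands, receptors and antagonists) and each target and line (columns), with 1 library per column. Blank cells had no peak, as throughout the H3K27me3 columns of *Ezh1/2* dKO and *Ezh2* Y726D, where 0 members had one.

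In *Ezh2* KO ESCs, where EZH1 is the remaining enzyme, H3K27me3 peaks were listed at almost as many members as in WT, while SUZ12 peaks were listed at fewer. H3K27me3 met the criterion at 30 members (78.9%, 63.7 to 88.9%), against 17% of genes. SUZ12 met it at 14 members (36.8%, 23.4 to 52.7%), against 4.86% of genes, and at p of at most 1e-20 at 9. The 14 were *Wnt1*, *Wnt2b*, *Wnt3*, *Wnt3a*, *Wnt4*, *Wnt5a*, *Wnt6*, *Wnt7a*, *Wnt7b*, *Wnt10b*, *Wnt11*, *Fzd1*, *Fzd2* and *Frzb*. At 16 members H3K27me3 was listed in this line without SUZ12. The 3 members with H3K27me3 in WT and not in *Ezh2* KO were the antagonists *Dkk3*, *Sfrp1* and *Wif1*, and *Sfrp2* gained a listing. These were weak peaks of their lists. The -log10 p in WT was 11.32, 17.01 and 10.42 (median of members with a peak 23.8). That of *Sfrp2* in *Ezh2* KO was 18.24 (median 210.5).

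The SUZ12 list held 5404 peaks in WT against 1578 in *Ezh2* KO, and the part of this length in the counts was not tested. At *Wnt5a*, SUZ12 covered 7740 bp in WT against 4698 bp in *Ezh2* KO, whereas H3K27me3 covered 11919 bp of WT in 11 peaks and 11290 bp of *Ezh2* KO in a single peak (chr14:29315571-29326860). The median coverage by H3K27me3 over members with a peak was 4.41 kb in WT and 4.78 kb in *Ezh2* KO. Their strongest H3K27me3 peaks had a median -log10 p of 23.8 in WT and 210.5 in *Ezh2* KO. The H3K27me3 lists were thus on unlike scales, and the same threshold does not make their counts directly comparable.

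EZH1 put back into *Ezh1/2* dKO cells was listed at 24 of the 31 members with SUZ12 in WT. The HA lists give no p, so every listed peak within 5 kb was counted. There were HA peaks at 25 members (65.8%, 49.9 to 78.8%), against 13.1% of genes. Without HA-EZH1, HA peaks were found at 1 member, *Wif1* (2.63%, 0.5 to 13.5%), against 3.63% of genes. *Wif1* was also the 1 member with HA-EZH1 and no SUZ12 in WT, and its peak was thus also there without the tag. All 14 members with SUZ12 in *Ezh2* KO had HA-EZH1. The 7 members with SUZ12 in WT and no HA-EZH1 peak were *Dkk1*, *Fzd4*, *Fzd6*, *Sfrp1*, *Sfrp2*, *Wnt8a* and *Wnt16*.

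Loss of both enzymes and loss of catalytic activity gave different SUZ12 lists and the same absence of H3K27me3. In *Ezh1/2* dKO ESCs, H3K27me3 was listed at 0 members (interval up to 9.2%), against 0.115% of genes, and SUZ12 at 1 member, *Wnt7b* (2.63%, 0.5 to 13.5%), against 1.17% of genes. In *Ezh2* Y726D ESCs, H3K27me3 was also listed at 0 members, against 1.38% of genes, while SUZ12 met the criterion at 24 members (63.2%, 47.3 to 76.6%), against 12.1% of genes, and at p of at most 1e-20 at 9. Of the 24, 23 also had SUZ12 in WT and 1, *Fzd7*, did not (252 bp, -log10 p 10.73). The 8 members with SUZ12 in WT and not in *Ezh2* Y726D were *Dkk1*, *Fzd3*, *Fzd6*, *Sfrp1*, *Sfrp2*, *Wnt5b*, *Wnt6* and *Wnt8a*. Their WT peaks had a -log10 p from 11.68 (*Fzd6*) to 30.58 (*Sfrp1*), apart from *Wnt6* (72.69). The median over members with a peak was 53.3 in WT and 17.4 in *Ezh2* Y726D. The lists held 5404 and 3366 peaks, and the part of this in the counts and in the coverage was not tested.

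The dKO SUZ12 peaks at *Wnt7b* covered 768 bp, compared with 6607 bp in WT and 5037 bp in *Ezh2* Y726D. Coverage over members with a peak had a median of 1.08 kb in *Ezh2* Y726D, below the 1.92 kb of WT. *Wnt5a* had 3289 bp in *Ezh2* Y726D.

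*Ezh2* R685C ESCs had peaks of both at most members. SUZ12 met the criterion at 26 members (68.4%, 52.5 to 80.9%), against 9.79% of genes (17 at p of at most 1e-20), and H3K27me3 at 32 (84.2%, 69.6 to 92.6%), against 28% of genes. *Dkk1*, *Fzd3*, *Fzd6*, *Fzd8* and *Sfrp1* had SUZ12 in WT and not in this line. The SUZ12 list held 3231 peaks here and 5404 in WT, and the part of this in the counts was not tested. Among the members with the longest coverage, *Wnt5a* had 8948 bp, *Wnt7b* 7267 bp and *Wnt11* 6187 bp, each more than in WT. In this line 12 of the 31 members had longer SUZ12 coverage than in WT, against 0 in *Ezh2* KO and 0 in *Ezh2* Y726D. This count was not made over all genes, so a trait particular to the members cannot be read from it.

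**Figure D2:**
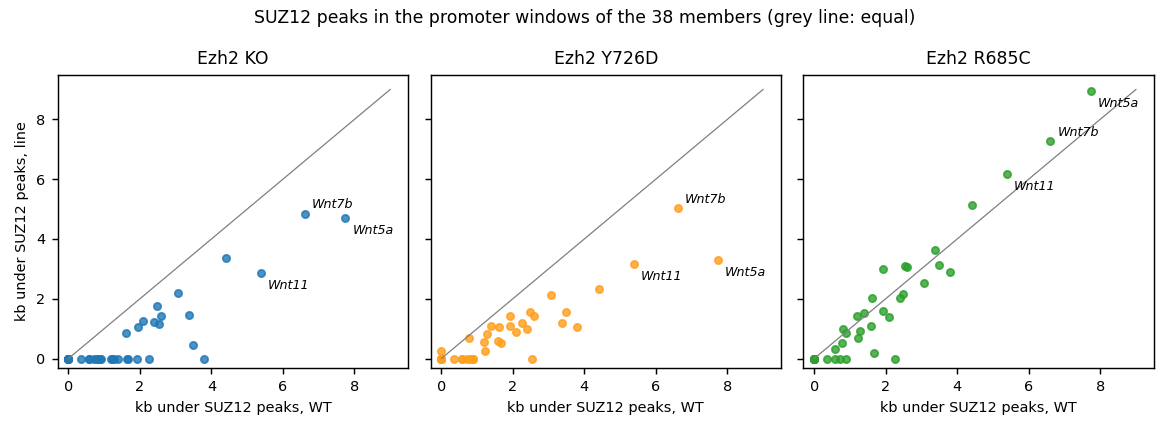
Kilobases under SUZ12 peaks within 5 kb of the start sites in each edited line (vertical axis) against WT (horizontal axis), with 1 point per member and 1 library per line. Points lie on or below the line of equality in *Ezh2* KO and, apart from *Fzd7*, in *Ezh2* Y726D, and *Wnt5a*, *Wnt7b* and *Wnt11* lie above it in *Ezh2* R685C.

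H3K27ac, used here in the 4 edited lines only, was listed at 0 to 5 of 19 ligands and at 4 to 8 of 10 receptors, depending on the line. It met the criterion at 8 members in *Ezh2* KO (21.1%, 11.1 to 36.3%), against 48.9% of genes. The same number was found in *Ezh1/2* dKO, against 37.1% of genes, and in *Ezh2* R685C, against 59.1% of genes. *Ezh2* Y726D had 18 (47.4%, 32.5 to 62.7%), against 60.4% of genes. At p of at most 1e-20 the count was 9 in *Ezh2* Y726D, 5 in *Ezh2* R685C and 2 in each of the other lines. *Fzd5*, *Fzd7*, *Fzd8*, *Fzd10* and *Sfrp4* had H3K27ac in all 4 lines, and 20 members had it in none, among them *Wnt5a*, *Wnt3a*, *Fzd3*, *Dkk3* and *Wif1*.

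The 10 members with H3K27ac in *Ezh2* Y726D and not in *Ezh1/2* dKO were *Wnt5b*, *Wnt6*, *Wnt9a*, *Wnt10b*, *Wnt11*, *Fzd1*, *Fzd6*, *Dkk1*, *Sfrp1* and *Sfrp5*. The *Ezh2* Y726D list was also the longer of these, with 40829 peaks against 17618. SUZ12 and H3K27ac were both listed within the windows of 9 members in *Ezh2* Y726D (*Wnt9a*, *Wnt10b*, *Wnt11*, *Fzd1*, *Fzd4*, *Fzd7*, *Fzd8*, *Fzd9* and *Sfrp5*), of 1 in *Ezh2* R685C (*Wnt5b*) and of 0 in *Ezh2* KO. H3K27ac alone was listed at 60.4% of all genes in *Ezh2* Y726D. Neither the 10 nor the 9 was counted over all genes, so no trait particular to the members can be read from them. At *Fzd9* in *Ezh2* Y726D, the strongest SUZ12 peak (chr5:135726200-135726819) overlapped the strongest H3K27ac peak (chr5:135724600-135726764). Peaks of both shared bases at 7 of the 9 members in *Ezh2* Y726D, the exceptions being *Wnt9a* and *Wnt10b*. At *Wnt5b* in *Ezh2* R685C they did not, as the strongest SUZ12 peak (chr6:119493234-119493662) and the strongest H3K27ac peak (chr6:119398149-119399548) lay near different start sites of the gene.

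Several ligand genes lie in pairs: *Wnt1* and *Wnt10b* (start sites 11.7 kb apart), *Wnt3a* and *Wnt9a* (16.2 kb), *Wnt6* and *Wnt10a* (19.6 kb) and *Wnt3* and *Wnt9b* (24.3 kb). These neighbours are not independent loci, although no peak was counted for both genes of a pair. The 7 members that passed an expression test lie on mm9 as follows. *Wnt5a* is at chr14:29317936-29340633, with 6 annotated start sites, *Wnt6* at chr1:74818466-74831893, *Fzd3* at chr14:65819863-65881300, *Fzd6* at chr15:38837879-38869732, *Fzd9* at chr5:135724808-135727100, *Dkk3* at chr7:119259533-119302571 and *Wif1* at chr10:120471016-120537706.

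The broad lists of H3K27me2, the intermediate methylation state, covered these promoters most in *Ezh2* KO. They were used at p of at most 0.1, as deposited, on the chromosomes listed in all 4 lines, which left 37 members (*Sfrp1* lies on chromosome 8, for which the WT list has no region). The median share of the promoter windows inside a listed region was 84.6% over the members in *Ezh2* KO, against 1.6% over all genes. It was 0% in WT (all genes 17.2%), 14.2% in *Ezh1/2* dKO (13.7%) and 20.5% in *Ezh2* Y726D (15.5%). In *Ezh2* KO, 29 members had at least 50% of their windows covered (78.4% of members and 19.7% of genes).

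*Wnt5a*, *Wnt6* and *Dkk3* were covered over 100% of their windows in *Ezh2* KO, while of the 5 members with H3K27ac in all 4 edited lines *Fzd5*, *Fzd10* and *Sfrp4* were covered over 0%, *Fzd7* over 5.8% and *Fzd8* over 53.1%. The highest -log10 p in a member's windows had a median of 5.86 in *Ezh2* KO and of 1.43 in the *Ezh1/2* dKO line as well as in *Ezh2* Y726D. The *Ezh1/2* dKO list, from cells without either enzyme, held 478485 regions and the *Ezh2* KO list 194708, and the part of list length in the shares was not tested.

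**Figure D3:**
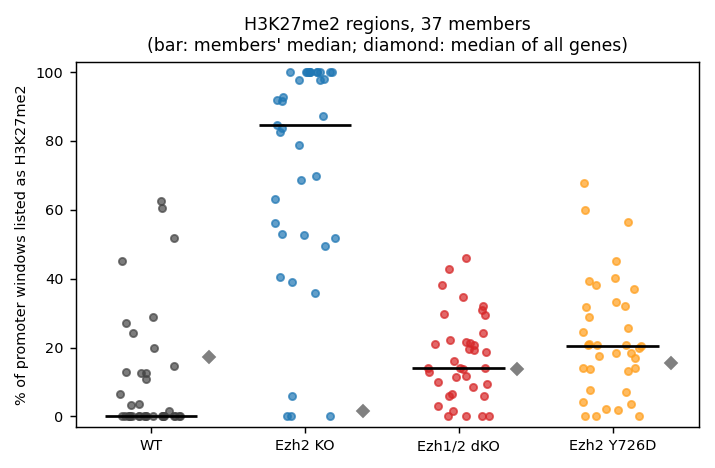
Share of the promoter windows inside deposited H3K27me2 regions (vertical axis, percent) for 37 members (points) in 4 lines, with the members' median as a bar and the median of all genes as a diamond. The members' median was 84.6% in *Ezh2* KO and at most 20.5% in the other lines, while the median of all genes was 1.6% in *Ezh2* KO.

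ATAC-seq regions, which mark open chromatin, were listed at all 38 members in each of the 4 lines measured, but also at 99 to 99.1% of all genes. The median share of the windows covered was lowest in *Ezh2* KO, at 34.5% (35.5% over all genes), and lay between 42.3% and 44.3% in the other lines (39.2% to 40.1%).

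The targeted genes went with the labels. *Ezh2* had 597.63 and 545.92 normalized counts in WT, 1.05 and 0.968 in *Ezh2* KO, 0.824 and 1.78 in *Ezh1/2* dKO and 421.72 and 613.06 in *Ezh2* Y726D. *Ezh1* had 226.78 and 377.43 in WT, 372.21 and 378.34 in *Ezh2* KO, 14.01 and 20.42 in *Ezh1/2* dKO and 24.1 and 15.7 in *Ezh2* Y726D.

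RNA-seq showed few transcripts of most ligands in WT and the highest levels at a few receptors and antagonists. Reads on genes ranged from 3604123 to 5181553 per library, so that 1 read was worth 0.824 to 1.334 normalized counts. Per kb of exon, the highest mean normalized counts in WT were those of *Sfrp1* (121.9), a secreted Frizzled-like decoy, and of the receptors *Fzd5* (82.1) and *Fzd10* (73.2). Next came *Fzd7* (31.9), *Sfrp2* (30.4) and the ligand *Wnt5b* (25.1). *Wnt1*, *Wnt2*, *Wnt8b*, *Wnt9b*, *Wnt10a* and *Wnt10b* had 0 reads in both WT libraries, which allows up to 3 reads per library.

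The ranges of levels of members with and without SUZ12 in WT overlapped. The 31 members with SUZ12 in WT had a median of 1.16 normalized counts per kb (0 to 121.9), and the 5 members with neither mark a median of 31.89 (0 to 82.1). *Sfrp1* had the highest level among the first, with peaks of SUZ12 (727 bp) and H3K27me3 (605 bp) just downstream of its start site. *Sfrp2* (30.4) and *Wnt5b* (25.1), also with SUZ12 in WT, were well above the median of 1.16 too. In *Ezh1/2* dKO ESCs the first median was 3.01 and the second 17.82. In *Ezh2* KO they were 0.59 and 34.74, and in *Ezh2* Y726D 1.9 and 25.92. These levels were not tested as groups.

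Expression was tested with limma on log2(normalized count + 1) over the 13872 genes with a mean of at least 5. Fold changes are on that scale, which understates the change of low genes. The mean was taken over all libraries, so a gene low in 1 line could enter through lines where it was high. Examples are *Wnt5a* (mean 4.3 in WT, 40.68 in *Ezh1/2* dKO) and *Wnt9a* (1.97 in *Ezh2* KO, 10.07 in WT). The part of this filter in the median fold changes of the members was not tested. In bulk RNA, a change in the number of cells of a type and a change in RNA per cell cannot be told apart. A change was called when the adjusted p was under 0.1 and the log2 fold change was 1 or more in either direction. Of the members, 7 ligands, 9 receptors and 7 antagonists were tested. The other 15 (*Dkk2*, *Frzb*, *Fzd1* and 12 Wnt ligands) had too few reads, with a highest value of 16.49 in any library, so that a change in them was not detectable at this depth. As an example, the normalized counts of *Wnt3* were 1.33 and 5.78 in WT, 2.09 and 0.968 in *Ezh2* KO, 9.07 and 12.4 in *Ezh1/2* dKO and 4.46 and 3.36 in *Ezh2* Y726D.

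With EZH1 as the remaining enzyme, no member passed the threshold. In *Ezh2* KO against WT, limma found 0 members higher, against 0.0937% of genes, and 0 lower, against 0.31%. At an unadjusted p under 0.05, 3 were higher and 2 lower, against 573 and 652 of 13872 genes. DESeq2 and edgeR on the recovered reads also gave 0. DESeq2 gave no adjusted p for *Wnt2b* and *Wnt9a*, so it could not have called them. The median log2 fold change over the tested members was -0.09, compared with -0.01 over all genes. Both libraries lay above both WT libraries with at least a 2-fold difference at *Wnt2b* (2.73% of genes), and below at *Fzd2*, *Wnt6* and *Wnt9a* (3.96% of genes).

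*Wnt2b* had 0 and 5.78 normalized counts in WT, compared with 7.32 and 15.5 in *Ezh2* KO (limma adjusted p = 0.502). *Fzd2*, a receptor of both branches, had 34.7 and 22.1 in WT, compared with 8.36 and 10.6 in *Ezh2* KO (log2 fold change -1.46 ± 0.51 SE, limma adjusted p = 0.411). *Wnt9a* had 6.67 and 13.48 against 1.05 and 2.90 (limma adjusted p = 0.464). Values of *Wnt6* follow with the ligands.

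Without both enzymes, 4 members rose: the ligand *Wnt5a*, the receptors *Fzd6* and *Fzd9*, and *Dkk3*. They were called in *Ezh1/2* dKO against WT, where 3.63% of all genes tested were called higher. No member was called lower by limma, against 0.389% of genes (unadjusted p under 0.05: 2 members, and 919 of 13872 genes). For this direction edgeR called 0 and DESeq2 called 1, *Fzd7*. The median log2 fold change was 0.99 over the members and 0.01 over all genes, among genes that passed the filter on the mean over all libraries. Both libraries were higher than both WT libraries by at least 2-fold at 10 members (11.5% of genes), adding *Fzd3*, *Fzd8*, *Sfrp2*, *Sfrp5*, *Wif1* and *Wnt11*, and lower at 1, *Fzd7* (1.45% of genes). Leaving out either *Ezh1/2* dKO library left 0 members called, with log2 fold changes of 2.75 to 2.88 for *Dkk3*, 2.76 and 3.44 for *Wnt5a* and 1.92 and 2.51 for *Fzd6*. Over all genes, 557 were called with both libraries and 9 or 3 with 1 of them left out.

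In catalytically inactive *Ezh2* Y726D ESCs, *Wnt5a*, *Fzd6* and *Dkk3* rose against WT, where 1.66% of genes were called higher. A fall was called for 0 members by limma, against 1.06% of genes (unadjusted p under 0.05: 0 members, and 944 of 13872 genes), as well as by DESeq2 and edgeR. The median log2 fold change was 0.49 over the members and -0.01 over all genes. Values of both libraries lay above WT by at least 2-fold at 8 members (6.42% of genes: *Dkk3*, *Fzd3*, *Fzd6*, *Fzd9*, *Sfrp5*, *Wnt5a*, *Wnt6* and *Wnt11*) and below at *Wif1* and *Wnt9a* (3.52% of genes). The comparisons of *Ezh1/2* dKO and *Ezh2* Y726D share the WT libraries. *Fzd6* was no longer called here when any 1 of the 8 libraries was left out (log2 fold change 1.56 to 1.72), while *Wnt5a* and *Dkk3* were called in each case.

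**Figure D4:**
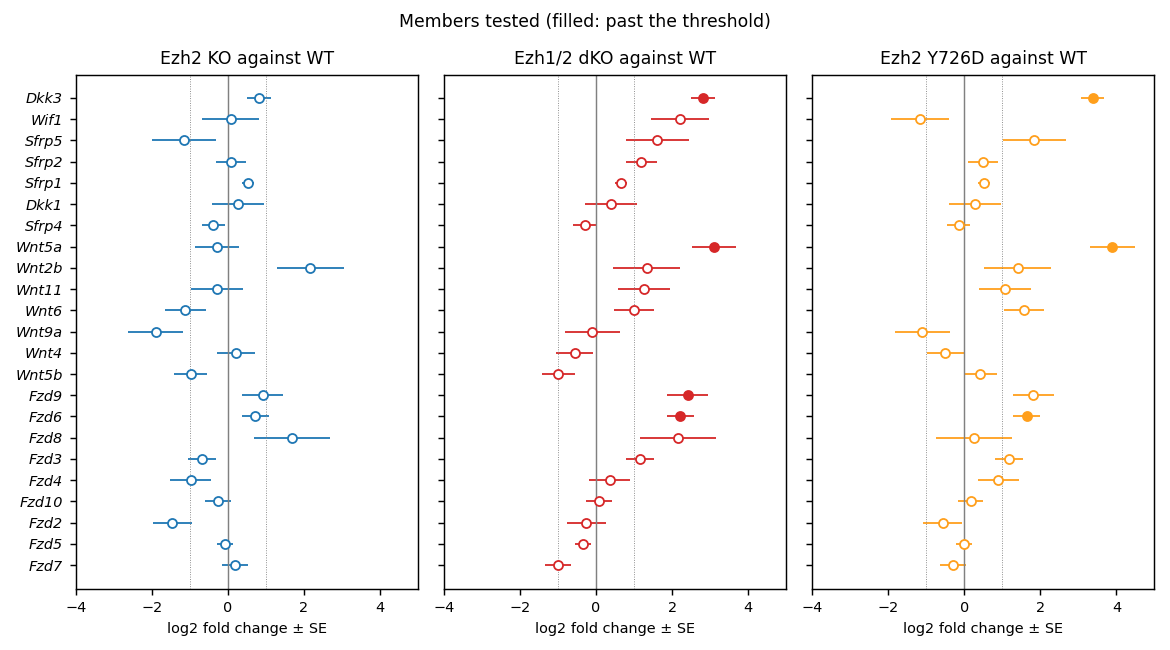
Log2 fold change against WT with its standard error (horizontal axis) for the 23 members tested (rows), in 3 lines with 2 libraries each, filled where the threshold was passed. No point is filled in *Ezh2* KO, 4 are filled in *Ezh1/2* dKO and 3 in *Ezh2* Y726D.

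Among the ligands, *Wnt5a* had the largest rise. Its normalized counts were 6.67 and 1.93 in WT, 2.09 and 3.87 in *Ezh2* KO, 50.3 and 31.1 in *Ezh1/2* dKO and 69.5 and 69.4 in *Ezh2* Y726D. All 4 libraries of the last pair of lines were above those of the first, without overlap. The log2 fold change against WT was 3.10 ± 0.59 SE in *Ezh1/2* dKO (limma adjusted p = 0.0329) and 3.90 ± 0.59 SE in *Ezh2* Y726D (adjusted p = 0.019). The reads behind this were 7 in WT, 96 in *Ezh1/2* dKO and 140 in *Ezh2* Y726D, which gives ratios of 10.5 (95% counting interval 4.9 to 26.8) and 17.7 (8.39 to 44.9). Leaving out WT replicate 1 or 2 gave 3.79 or 2.40 in *Ezh1/2* dKO and 4.59 or 3.2 in *Ezh2* Y726D, called by limma in each case.

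The *Wnt5a* promoter had SUZ12 in WT, *Ezh2* KO, *Ezh2* Y726D and *Ezh2* R685C, and H3K27ac in none of the edited lines. *Ezh1/2* dKO was higher than *Ezh2* KO by 3.39 on the log2 scale (limma adjusted p = 0.0228). Between *Ezh2* Y726D and *Ezh1/2* dKO the log2 difference was 0.80 ± 0.59 SE (limma adjusted p = 0.629).

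*Wnt6*, whose sequence is printed above, had its lowest values in *Ezh2* KO. The normalized counts were 13.3 and 9.63 in WT, 3.14 and 6.77 in *Ezh2* KO, 19.0 and 29.3 in *Ezh1/2* dKO and 27.6 and 45.9 in *Ezh2* Y726D. The values overlapped only between *Ezh1/2* dKO and *Ezh2* Y726D. *Wnt6* rose in *Ezh1/2* dKO against *Ezh2* KO (log2 fold change 2.12 ± 0.54 SE, limma adjusted p = 0.0893), and the differences from WT missed the threshold (limma adjusted p from 0.21 to 0.601). The call against *Ezh2* KO was lost, among other settings, in limma without a filter, with DESeq2 (log2 fold change 2.27), and without any 1 of the *Ezh2* KO (1.66 and 2.57) or *Ezh1/2* dKO libraries (2.42 and 1.82).

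*Wnt5b*, the ligand with the highest level per kb, had 72.0 and 59.7 normalized counts in WT, 29.3 and 36.8 in *Ezh2* KO, 39.6 and 26.6 in *Ezh1/2* dKO and 57.1 and 135.4 in *Ezh2* Y726D. It was not called by limma in any comparison, and DESeq2 called it higher in *Ezh2* Y726D than in *Ezh1/2* dKO. *Wnt11*, a ligand of cell movements in the embryo, had 2.67 and 8.67 in WT, 2.09 and 6.77 in *Ezh2* KO, 12.4 and 14.2 in *Ezh1/2* dKO and 10.7 and 12.3 in *Ezh2* Y726D (adjusted p against WT from 0.352 to 0.939). *Wnt4* lay between 6.59 and 15.7 in all libraries.

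**Figure D5:**
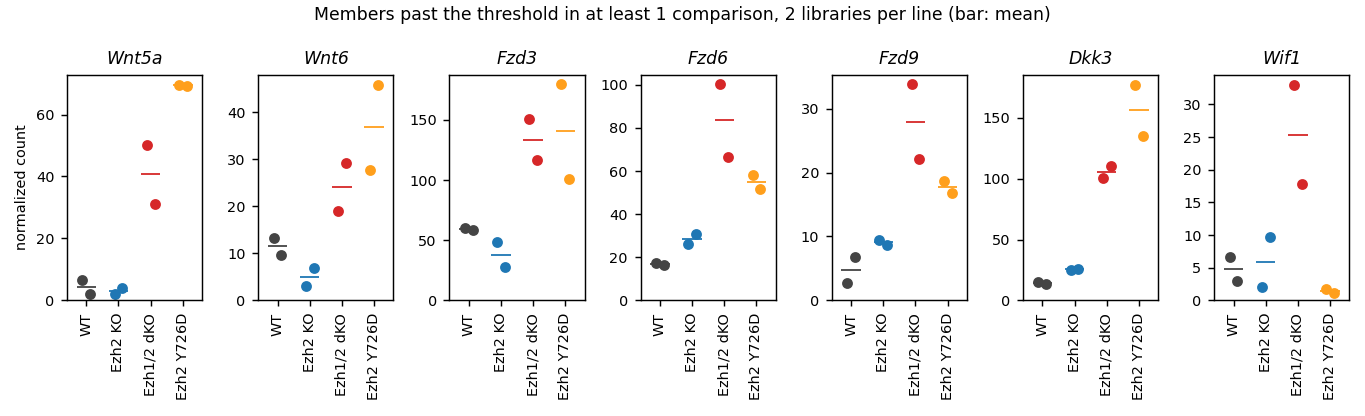
Normalized counts (vertical axis, from 0, with a scale of its own in each panel) of the 7 members that passed the threshold in at least 1 of 5 comparisons, with 2 libraries per line as points and their mean as a bar. *Wnt5a*, *Dkk3* and *Fzd6* are higher in *Ezh1/2* dKO and *Ezh2* Y726D than in WT without overlap, and *Wif1* is high in *Ezh1/2* dKO alone.

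Among the receptors, *Fzd6* rose in *Ezh1/2* dKO and in *Ezh2* Y726D, *Fzd9* in *Ezh1/2* dKO, and *Fzd3* in *Ezh1/2* dKO against *Ezh2* KO. *Fzd6*, which acts in planar cell polarity, had 17.3 and 16.4 normalized counts in WT, 26.1 and 31.0 in *Ezh2* KO, 100.6 and 66.6 in *Ezh1/2* dKO and 58.0 and 51.5 in *Ezh2* Y726D. The lines followed each other without overlap. The log2 fold change against WT was 2.21 ± 0.36 SE in *Ezh1/2* dKO (limma adjusted p = 0.0234) and 1.64 ± 0.36 SE in *Ezh2* Y726D (adjusted p = 0.0606). *Ezh1/2* dKO was also above *Ezh2* KO (1.49 ± 0.36 SE, limma adjusted p = 0.0748). Its promoter had short marks in WT, 588 bp of SUZ12 at the start site (chr15:38837879-38838466) and 380 bp of H3K27me3 upstream of it, and among the edited lines it had H3K27ac in *Ezh2* Y726D alone.

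*Fzd9* had 2.67 and 6.74 normalized counts in WT, 9.41 and 8.71 in *Ezh2* KO, 33.8 and 22.2 in *Ezh1/2* dKO and 18.7 and 16.8 in *Ezh2* Y726D. It rose in *Ezh1/2* dKO (log2 fold change 2.42 ± 0.54 SE, limma adjusted p = 0.0542, from 9 reads in WT and 66 in *Ezh1/2* dKO, ratio 5.61 with a counting interval of 2.78 to 12.8) and had 1.81 ± 0.54 SE in *Ezh2* Y726D (adjusted p = 0.149). Without WT replicate 1 the value in *Ezh1/2* dKO was 1.88 and not called, and DESeq2 did not call it either (2.53). H3K27ac was listed near its start site in *Ezh1/2* dKO and *Ezh2* Y726D, and not in *Ezh2* KO or *Ezh2* R685C.

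*Fzd3*, a receptor of axon guidance and planar cell polarity, had 60.0 and 58.7 normalized counts in WT, 48.1 and 28.1 in *Ezh2* KO, 150.8 and 116.3 in *Ezh1/2* dKO and 180.1 and 100.7 in *Ezh2* Y726D. Both of the last lines lay above both of the first without overlap. It rose in *Ezh1/2* dKO against *Ezh2* KO (log2 fold change 1.82 ± 0.37 SE, limma adjusted p = 0.0412). Against WT the log2 fold changes were 1.14 (adjusted p = 0.145) and 1.17 (adjusted p = 0.177) in *Ezh1/2* dKO and *Ezh2* Y726D, which DESeq2 called in both lines.

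The 3 receptors with the highest levels per kb, all without SUZ12 in WT, did not pass the threshold in limma. *Fzd5* had 497.6 and 637.4 normalized counts in WT, 471.5 and 597.0 in *Ezh2* KO, 403.1 and 479.5 in *Ezh1/2* dKO and 474.3 and 650.0 in *Ezh2* Y726D. *Fzd10* ranged from 147.4 to 325.6 over all libraries, and the values of its lines overlapped. *Fzd7* had 110.7 and 195.5 in WT, 178.8 and 154.8 in *Ezh2* KO, 80.8 and 64.8 in *Ezh1/2* dKO and 156.0 and 92.9 in *Ezh2* Y726D. Its log2 fold change in *Ezh1/2* dKO was -1.01 ± 0.34 SE (limma adjusted p = 0.159), and DESeq2 called it lower there (-1.08). *Fzd8*, with 0 and 9.63 in WT and 17.3 and 10.7 in *Ezh1/2* dKO, did not pass either (limma adjusted p = 0.284).

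Among the antagonists, *Dkk3* had the smallest adjusted p of the members against WT in *Ezh1/2* dKO as well as in *Ezh2* Y726D. DKK3 is the divergent member of its family and, unlike DKK1, is not a typical blocker of LRP co-receptors. Its normalized counts were 14.7 and 13.5 in WT, 25.1 and 26.1 in *Ezh2* KO, 100.6 and 110.1 in *Ezh1/2* dKO and 177.4 and 135.4 in *Ezh2* Y726D, with no overlap between lines. The log2 fold change against WT was 2.82 ± 0.31 SE in *Ezh1/2* dKO (7.05-fold, limma adjusted p = 0.00655) and 3.37 ± 0.31 SE in *Ezh2* Y726D (10.4-fold, adjusted p = 0.00229). In *Ezh2* KO it was 0.82 (limma adjusted p = 0.464), and *Ezh1/2* dKO was 3.99-fold above *Ezh2* KO (limma adjusted p = 0.0151). No SUZ12 peak was listed at this gene in any line and no H3K27ac peak in the 4 edited lines, and its H3K27me3 peaks were in WT and *Ezh2* R685C.

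*Wif1*, which binds Wnt ligands, differed between the *Ezh1/2* dKO and *Ezh2* Y726D lines. It had 6.67 and 2.89 normalized counts in WT, 2.09 and 9.68 in *Ezh2* KO, 33.0 and 17.8 in *Ezh1/2* dKO and 1.78 and 1.12 in *Ezh2* Y726D. The *Ezh1/2* dKO libraries were above all others, with no overlap. *Wif1* was lower in *Ezh2* Y726D than in *Ezh1/2* dKO, the 1 member called between these lines (log2 fold change -3.38 ± 0.76 SE, limma adjusted p = 0.0896), against 1.49% of genes called lower. No member was called higher by limma, against 0.187% of genes. An unadjusted p under 0.05 was reached by 1 member, *Wnt5b* (which DESeq2 called and edgeR did not), and by 631 of 13872 genes. The reads were 60 in *Ezh1/2* dKO and 3 in *Ezh2* Y726D, a ratio of 17.2 (95% counting interval 5.62 to 85.9), and the call was lost, among other settings, in limma without a filter and without either *Ezh1/2* dKO library (log2 fold change -3.81 and -2.95) or *Ezh2* Y726D replicate 2 (-3.18).

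The *Sfrp* genes included the most expressed member. *Sfrp1* had 521.6 and 544.0 normalized counts in WT, 743.4 and 799.3 in *Ezh2* KO, 852.3 and 832.0 in *Ezh1/2* dKO and 868.4 and 662.3 in *Ezh2* Y726D. All edited libraries were above WT, by less than 2-fold (log2 fold change 0.66 ± 0.15 SE in *Ezh1/2* dKO, limma adjusted p = 0.0614). *Sfrp2* had 78.7 and 52.0 in WT, 98.3 and 46.5 in *Ezh2* KO, 183.0 and 118.98 in *Ezh1/2* dKO and 86.5 and 94.0 in *Ezh2* Y726D (limma adjusted p = 0.155 in *Ezh1/2* dKO, where DESeq2 called it). *Sfrp5* had 16.0 and 1.93 in WT, 1.05 and 3.87 in *Ezh2* KO, 23.9 and 17.8 in *Ezh1/2* dKO and 18.7 and 31.3 in *Ezh2* Y726D, where the spread between the WT libraries was large (limma adjusted p = 0.329 and 0.36). *Sfrp4*, from 57.7 to 97.3 normalized counts over all libraries, and *Dkk1*, from 8.67 to 29.1, were not called.

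Set directly against *Ezh2* KO, *Ezh1/2* dKO cells had 5 members higher, *Wnt5a*, *Wnt6*, *Fzd3*, *Fzd6* and *Dkk3*, against 3.52% of genes called higher. The number called lower by limma was 0, against 0.0577% of genes. An unadjusted p under 0.05 was reached by 1 member, *Fzd7* (which DESeq2 called and edgeR did not), and by 389 of 13872 genes. The median log2 fold change was 1.2 over the members and -0.01 over all genes. Without either *Ezh1/2* dKO library 0 members were called, and without either *Ezh2* KO library 2. *Fzd6* and *Wnt6* were lost without any 1 of these 4 libraries. Of the 5, all except *Dkk3* had SUZ12 in WT, *Wnt5a* and *Wnt6* also had it in *Ezh2* KO, and *Wnt5a* alone had it in *Ezh2* Y726D. Among all 23 members tested, 17 had SUZ12 in WT, 6 in WT and *Ezh2* KO and 10 in WT and *Ezh2* Y726D. No link between SUZ12 and the rise can thus be read from the 5.

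Other genes of the pathway were read against the same background as the members. Of 27 genes of ligand secretion, co-receptors and extracellular regulators, 18 were tested, and *Dkkl1*, a relative of the *Dkk* genes, was called higher in *Ezh1/2* dKO (log2 fold change 3.10 ± 0.57 SE, limma adjusted p = 0.0301) and *Ezh2* Y726D (3.07 ± 0.57 SE, limma adjusted p = 0.0376). Its normalized counts were 2.67 and 0.963 in WT, 8.36 and 11.6 in *Ezh2* KO, 16.5 and 29.3 in *Ezh1/2* dKO and 19.6 and 23.5 in *Ezh2* Y726D. Of 27 cytoplasmic, membrane and nuclear genes, 25 were tested and limma called 0 against WT. The cadherin *Celsr2*, of planar cell polarity, was higher in *Ezh1/2* dKO than in *Ezh2* KO (1.34 ± 0.31 SE, limma adjusted p = 0.0674) and lower in *Ezh2* Y726D than in *Ezh1/2* dKO (-1.41 ± 0.31 SE, limma adjusted p = 0.0883). Of 18 target genes, 14 were tested and *Cdx4* was called higher in *Ezh1/2* dKO (2.56 ± 0.66 SE, limma adjusted p = 0.0818, from 1.33 and 4.81 normalized counts in WT to 17.3 and 24.9). *Ascl2*, another target, was higher in *Ezh1/2* dKO than in *Ezh2* KO (2.35 ± 0.59 SE, limma adjusted p = 0.0834). In *Ezh1/2* dKO against WT the counts called higher were thus 1 of 18, 0 of 25 and 1 of 14, against 3.63% of genes. None of the 3 lists had a gene called in *Ezh2* KO against WT. The median log2 fold changes of the lists were 0.05, -0.02 and -0.59 there, in the order above, against -0.01 over all genes. For the targets the median was 0.08 in *Ezh1/2* dKO and 0.67 in *Ezh2* Y726D against WT (all genes 0.01 and -0.01). These medians were not tested.

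The target genes varied between libraries of 1 line. Their summed normalized counts were 1845.7 and 3057.5 in the WT libraries, 2032.5 and 2134.6 in *Ezh2* KO, 2225.1 and 2290.6 in *Ezh1/2* dKO, and 2720.2 and 4813.9 in *Ezh2* Y726D. In *Ezh2* Y726D, 11 of 14 were higher in replicate 2, by a median of 0.89 on the log2 scale, as were 10 in *Ezh2* KO (0.26) and 9 in *Ezh1/2* dKO (0.13), whereas 9 were higher in replicate 1 of WT. Of the members, *Wnt5b*, *Fzd2* and *Dkk1* were at least 2-fold higher in replicate 2 of *Ezh2* Y726D. The part of this spread in the members' values was not tested.

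The 8 ESC markers were all tested, were not called in any line, and summed to 12878.4 to 16021.3. Some markers of other cells were called higher in *Ezh1/2* dKO or *Ezh2* Y726D, while others on the same lists were not. Of 7 trophectoderm markers, *Gata3*, *Krt8* and *Krt18* were called higher in *Ezh1/2* dKO and *Ezh2* Y726D, and the 7 summed to 242.6 to 292.1 in WT, 463.2 to 476.1 in *Ezh2* KO, 720.4 to 811.6 in *Ezh1/2* dKO and 664.2 to 1163.5 in *Ezh2* Y726D. The highest of these sums held 439.66 of *Cdx2*, which was not called and had 32.99 in the other *Ezh2* Y726D library. Of 5 fibroblast markers, *Thy1* alone was tested and was called higher in both lines. The 4 in the table, with *Thy1* at 88.2 and 101.2 in *Ezh1/2* dKO and 84.7 and 76.1 in *Ezh2* Y726D, summed to 4.8 to 12 in WT, at most 16.7 in *Ezh2* KO, at most 116.3 in *Ezh1/2* dKO and 86.1 to 88.3 in *Ezh2* Y726D. *Gata4* was called higher in *Ezh1/2* dKO, and the 6 primitive endoderm markers summed to 9.3 to 29.8 in WT, 5.2 to 28.1 in *Ezh2* KO, 71.7 to 111 in *Ezh1/2* dKO and 41 to 48.1 in *Ezh2* Y726D. None of the mesoderm and neural markers was called against WT. The part of these markers in the members' values was not tested.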

How the data were processed

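RNA-seq of E14 ESC lines was deposited as a gene table in which the authors had used TopHat for alignment, PICARD for duplicates and HTSeq-count without strand on RefSeq genes (mm9), then divided by DESeq2 size factors. This normalized signal, made by the authors, has 1 value per gene and library, and 100% of values were whole reads within 0.1 read once divided by the worth of 1 read. ChIP-seq and ATAC-seq lists, as deposited, hold MACS2 regions with the -log10 p of each region against its own library (mm9, Bowtie), except the HA lists, which hold positions only. The authors' spike-in scaling does not enter the lists, whose read depth is unknown. Lists were called per sample.

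Tests used limma 3.58.1 in R 4.3.3 on log2(value + 1) over all 4 lines, with Benjamini-Hochberg adjustment over 13872 genes with a mean of at least 5. DESeq2 1.42.0 and edgeR 4.0.16 were run on recovered reads. Peaks at p of at most 1e-10 (broad lists 0.1) within 5 kb of GENCODE start sites counted with at least 1 bp of overlap. Of 18055 genes, 16570 were placed by symbol, 854 by synonym and 631 not. Reads per gene and antisense partner cannot be told apart without strand. Scripts were tested on simulated data. Genes were named if called, if both libraries lay beyond both WT libraries by at least 2-fold, or if among the 3 highest per kb of their role, and Wnt5a served as an example locus. Members and gene lists were chosen with earlier results of these data known. Leaving chromosome 8 out of the H3K27me2 comparison was chosen after seeing the data. The authors' own comparison tables (fold changes and p-values between lines), and the RING1B, H2AK119ub, WT H3K27ac, H3K27me1, input and rescue samples, were not used here. Alternatives were another pseudocount, no filter, upper-quartile rescaling, a replicate block, leaving out each library, a stricter p, a window of 1 kb, the 5′-most start site alone and an overlap of 200 bp.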

Additional observations from a re-analysis of the deposited data

How the results depend on the processing

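Counts of members called against WT were 0 in *Ezh2* KO under every alternative. Leaving out 1 library gave 0 to 6 in *Ezh1/2* dKO against WT (0 without either *Ezh1/2* dKO library), 2 in *Ezh2* Y726D against WT, 0 to 7 in *Ezh1/2* dKO against *Ezh2* KO and 0 to 2 in *Ezh2* Y726D against *Ezh1/2* dKO. In these fits limma assumes that the lone library varies like the other lines. For *Ezh2* Y726D against *Ezh1/2* dKO the count was 0 without a filter on low values and 2 with DESeq2. With the replicate block it was 0 (*Wif1* lost), and 3 for *Ezh1/2* dKO against *Ezh2* KO (*Fzd6* and *Wnt6* lost), while the block left 4, 3 and 0 calls for *Ezh1/2* dKO, *Ezh2* Y726D and *Ezh2* KO against WT. Deviations of libraries that share a number correlated at r from 0.223 to 0.288 among the edited lines and from -0.409 to -0.065 between these and WT, and no label ties them, so the numbers were not taken as pairs. Peaks at p of at most 1e-20 left SUZ12 at 9 members in *Ezh2* KO, 0 in *Ezh1/2* dKO, 9 in *Ezh2* Y726D and 17 in *Ezh2* R685C, and H3K27ac at 9 in *Ezh2* Y726D, 5 in *Ezh2* R685C and 2 each in *Ezh2* KO and *Ezh1/2* dKO. The other peak alternatives stayed within 1.5 times the count. The direction of change was checked only for members that were called or lay beyond both WT libraries by at least 2-fold. None of these fold changes changed direction, and the small changes of the other members were not checked. The cause of these shifts was not tested. With 3604123 to 5181553 reads per library, the 15 members not tested, and small changes in members such as *Wif1* and *Wnt2b*, were not detectable at this depth.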
